A study of Homo sapiens with 12 samples.

Results

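HEK293T cells that had received si-snaR-A#2 were compared with HEK293T cells that had received si-snaR-A#3, 2 small interfering RNAs (siRNAs) directed at the same stretch of the noncoding RNA snaR-A. The comparison takes 6 of the 12 libraries of the series, namely the 3 libraries labelled with each of the 2 siRNAs. Each siRNA was used at 12.5 nM and RNA was taken at 48 h, and 3 libraries of cells that received a scramble siRNA at the same dose and time serve as the reference level. HEK293T is an embryonic kidney line carrying the SV40 large T antigen, so every group is one transformed line and not kidney tissue. The study describes such libraries as biological replicates handled together within a day, and the labels add nothing on separate cultures. P-values therefore cover the spread between libraries of a single day.

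An siRNA is a short duplex of which one strand, the guide, is held by an Argonaute protein and pairs with a target RNA. Bases 2 to 8 of the guide form the seed, and a messenger RNA with a match to the seed in its 3′ UTR can also be lowered. The other strand can be loaded as well and then brings its own seed. snaR-A is a short RNA polymerase III transcript that the study describes as hominid-specific. Its own level is not analysed here because no row of the table carries its name. The study reports that both siRNAs lowered it in RT-qPCR.

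The sites of both siRNAs are shown because they differ by a single base at one end. In the snaR-A gene SNAR-A12 (GRCh38, plus strand) the site of si-snaR-A#2 lies at chr19:47907766-47907784 and that of si-snaR-A#3 at chr19:47907765-47907784, and both sites were present in 14 of 14 snaR-A genes annotated by RefSeq. The sequences are read from the genome 5′ to 3′, and capitals mark the 7 bases that pair with positions 2 to 8 of the guide.
si-snaR-A#2 site: ggtccacatggGTCGGAAa
si-snaR-A#3 site: tggtccacatggGTCGGAAa
The guide was taken to be the complement of these sites. Both guides then begin at the same base and share the seed, whose matching word in a messenger RNA is GUCGGAA. The opposite strand, called the listed strand here because it is the one the study lists, begins 1 base earlier in si-snaR-A#3. Its seed-matching word is UGUGGAC for si-snaR-A#2 and GUGGACC for si-snaR-A#3.

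The libraries held 132189997 to 155192573 estimated counts in the si-snaR-A#2 group and 129521746 to 159369545 in the si-snaR-A#3 group. In a principal component analysis of the 6 libraries the first component, with 31.9% of the variance, separated the siRNAs, and the second, with 24.8%, separated libraries within each siRNA. The mitochondrial share of counts was 5.82%, 5.00% and 5.00% with si-snaR-A#2 against 4.06%, 4.84% and 5.83% with si-snaR-A#3. The groups overlapped, and the difference of 0.370 percentage points had a two-sided exact permutation p of 0.5, where 0.1 is the smallest that 3 against 3 allows. All 10 HEK293T markers were in the table and 9 of them averaged at least 1 CPM (counts scaled to a common library size) with either siRNA. Their summed level was 1857 to 1877 CPM with si-snaR-A#2 against 1480 to 1554 CPM with si-snaR-A#3. In the scramble libraries this sum was 1325 to 1423 CPM, below both. Single markers went in both directions. Of the 10, 4 were higher with si-snaR-A#2 against 2 with si-snaR-A#3 (edgeR, adjusted p under 0.05). The 11 monocyte markers summed to at most 1.42 CPM in any of the 6 libraries, and TYROBP, S100A8 and S100A9 were at 0 throughout. The 12 adult kidney markers summed to 9.51 to 11.3 CPM, with CDH16, AQP2 and UMOD at 0, and the 10 markers of A549 lung cells to 66.2 to 77.8 CPM.

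Of 21999 genes tested, 3421 (15.6%) differed between the 2 siRNAs at an adjusted p under 0.05 in edgeR's quasi-likelihood test. Higher with si-snaR-A#2 were 1434 genes (6.52%), and higher with si-snaR-A#3 were 1987 (9.03%). With only genes of at least 1 CPM on average tested, these counts were 1920 and 1991, so the lean depends on the filter. Most differences were small. The median size over called genes was 0.28 on the log2 scale, and 2801 of the 3421 were under 0.5. Only 53 genes (0.241%) were called and over 2-fold higher with si-snaR-A#2, against 68 (0.309%) higher with si-snaR-A#3. Of these 121 genes, 8 were at 0 in all 3 libraries of one siRNA, so that their fitted fold has no fixed size.

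**Figure D1:**
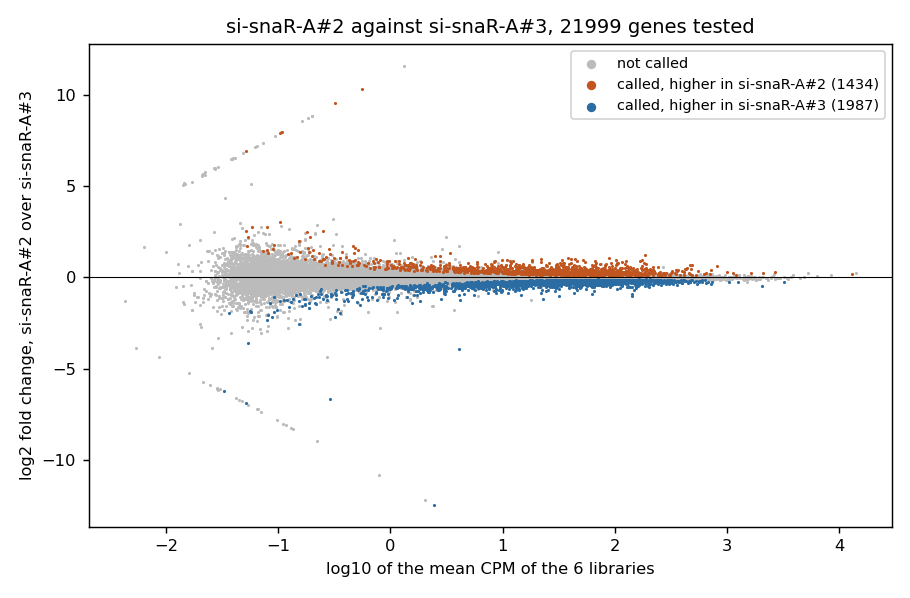
Log2 fold change of si-snaR-A#2 over si-snaR-A#3 (y) against the log10 mean CPM of the 6 libraries (x), one point per gene, coloured by call. Called genes in both directions lie mostly within 0.5 of 0, and the slanted rows of points far from 0 are genes at or near 0 with one siRNA.

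The genes with the largest rise with si-snaR-A#2 had varied functions. DNAJC5, a cochaperone of synaptic vesicles, stood at 51.9, 53.03 and 51.0 CPM with si-snaR-A#2 against 23.8, 24.8 and 24.7 CPM with si-snaR-A#3. The groups were far apart, with a log2 difference of 1.09 ± 0.04 (SE, n = 3 per group; edgeR adjusted p = 6.3e-08), against a scramble mean of 63.0 CPM. GNB4, a G protein beta subunit, was at 247, 270 and 264 CPM against 114, 115 and 106 CPM, a log2 difference of 1.22 ± 0.06 (SE). Its scramble mean was 241 CPM, close to the si-snaR-A#2 libraries. LOX, the enzyme that cross-links collagen, reached 111, 134 and 114 CPM against 54.3, 60.7 and 59.3 CPM, a log2 difference of 1.04 ± 0.09 (SE), around a scramble mean of 90.8 CPM. PDXP, a pyridoxal phosphatase, differed by 1.03, CXorf38 by 0.99, EFNA3, an ephrin ligand, by 0.97, and the long noncoding RNA LINC02381 by 0.98. The others of the 12 were SAP30-DT (1.31), GAS2L1 (1.16), AMPD3 (1.16), PDE4C (1.04) and FSIP2 (0.99), each under 6 CPM in every one of the 6 libraries. The calls of PDE4C and FSIP2 were each lost in 5 of the 6 fits that left out 1 library. In all 12 the groups did not overlap, which the choice of genes required, and the same held for 35.3% of all genes tested.

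Higher with si-snaR-A#3 was first PPP4R4, a regulatory subunit of protein phosphatase 4. It was at 0.623, 0.441 and 0.452 CPM with si-snaR-A#2 against 8.08, 10.6 and 4.55 CPM with si-snaR-A#3, a log2 difference of -3.93 ± 1.03 (SE; edgeR adjusted p = 0.021), with a scramble mean of 3.50 CPM. The si-snaR-A#3 libraries themselves spread widely, and the call was lost in 4 of the 6 fits that left out 1 library. SMYD2, a lysine methyltransferase, was far steadier at 14.2, 14.1 and 13.96 CPM against 30.97, 31.9 and 31.6 CPM, a log2 difference of -1.16 ± 0.05 (SE). Its scramble mean was 30.7 CPM, so the si-snaR-A#2 libraries were the ones away from the reference. TWF1, an actin-monomer binder, was at 91.9, 91.2 and 94.6 CPM against 192, 189 and 192 CPM, a log2 difference of -1.04, and MOCS2, of molybdenum cofactor synthesis, differed by -1.03. Below 10 CPM, TLR3 (-1.39), INHBE (-1.30), PLCL1 (-1.21), NUPR1 (-1.21), MLC1 (-1.19), FUT1 (-1.12), KDR (-1.09) and CHAC1 (-0.99) were also higher with si-snaR-A#3. Of the 24 genes named here, 13 have exons that overlap those of another annotated gene on either strand, among them DNAJC5, GNB4, LOX, PDXP and TWF1. The strand of the overlap was not separated, and reads may be split between genes where it is the same.

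Genes were then sorted by the words in their 3′ UTR. Of 15005 tested genes with a 3′ UTR, 8.14% were higher with si-snaR-A#2 against 12.5% with si-snaR-A#3. The 1042 genes with GUGGACC, the word of the si-snaR-A#3 listed strand, ran the other way, with 20.1% higher with si-snaR-A#2 against 7.58% higher with si-snaR-A#3. Their median log2 difference was 0.04, against -0.03 for all genes with a 3′ UTR. Their median against scramble was -0.00 in the si-snaR-A#2 libraries and -0.06 in those of si-snaR-A#3. In genes with 2 or more copies (75 genes) the median difference was 0.10. Where the word lay in the transcript but outside the 3′ UTR (2618 genes), 9.36% were higher with si-snaR-A#2 against 10.0% with si-snaR-A#3. In each quartile of 3′ UTR length the share higher with si-snaR-A#2 was larger with the word than without, from 17.7% against 8.61% in the longest quartile to 27.2% against 6.82% in the second.

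Sites of 3 of the genes with the largest differences, among called genes of this class with at least 1 CPM, are given with 11 bases on either side, capitals marking the word (GRCh38, read on the gene's strand). They lie in DNAJC5 at chr20:63932765-63932793 (plus strand, the first of 5 copies), PDXP at chr22:37666299-37666327 (plus strand, the first of 3) and EFNA3 at chr1:155086713-155086741 (plus strand).
DNAJC5: agaatccacacGTGGACCattgtgggtcc
PDXP: tattgtcctggGTGGACCaatccaaaggc
EFNA3: agggcactgtaGTGGACCaagcacgggga
PDXP was at 53.6, 57.3 and 51.8 CPM with si-snaR-A#2 against 25.8, 26.3 and 27.6 CPM with si-snaR-A#3, on either side of a scramble mean of 36.6 CPM. CXorf38 was at 58.1, 59.8 and 58.1 CPM against 29.6, 29.9 and 29.4 CPM, with a scramble mean of 52.7 CPM. EFNA3 was at 23.6, 25.2 and 23.3 CPM against 11.4, 12.5 and 12.9 CPM, with a scramble mean of 14.7 CPM. Among the 12 largest rises with si-snaR-A#2, 4 carried the word, and among the 12 largest falls none did (0). Of all tested genes with a 3′ UTR, 1042 of 15005 carried it, so 0 among 12 is close to that share. Both sets of 12 were picked from these same data.

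The word of the si-snaR-A#2 listed strand, UGUGGAC, overlaps GUGGACC in 6 bases. Of the 1236 genes that held it without GUGGACC, 7.93% were higher with si-snaR-A#2 against 15.2% with si-snaR-A#3, and their median log2 difference was -0.04. Both shares lay within a few percentage points of those of all genes with a 3′ UTR.

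With the guide taken as above, both siRNAs share its seed, yet genes with the word GUCGGAA differed too. Of 199 such genes, 7.54% were higher with si-snaR-A#2 against 24.1% with si-snaR-A#3, with a median log2 difference of -0.08. Their median against scramble was -0.20 in the si-snaR-A#2 libraries and -0.12 in those of si-snaR-A#3. The 4 genes with the largest differences among called genes of this class with at least 1 CPM are shown in the same way, at chr19:10513709-10513737 for S1PR5, chr9:33441660-33441688 for AQP3, chr7:27154858-27154886 for HOXA7 and chr17:75318978-75319006 for GRB2, all on the minus strand.
S1PR5: ccaaaggtgcaGTCGGAAaagatgcaggg
AQP3: gcaagggaccaGTCGGAAgggattctggc
HOXA7: tgcaccggacaGTCGGAAaagcgtcttta
GRB2: cttacagggggGTCGGAAgcctgtcctca
HOXA7, a homeobox factor, was at 7.52, 7.20 and 7.40 CPM with si-snaR-A#2 against 11.4, 12.3 and 13.1 CPM with si-snaR-A#3, both below a scramble mean of 17.8 CPM. S1PR5, a sphingosine phosphate receptor, differed by -0.92 and AQP3, a water and glycerol channel, by -0.76. GRB2, an adaptor of receptor tyrosine kinases, went the other way at 132, 132 and 132 CPM against 75.9, 78.1 and 80.4 CPM, a log2 difference of 0.75 ± 0.05 (SE), with a scramble mean of 149 CPM.

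All 28 words of 7 bases along both strands of the si-snaR-A#3 duplex were then followed, a description added after the data had been seen. Positions are counted from the 5′ end of each strand. The word of positions 1 to 7 of the guide, UCGGAAA, resembled that of the seed, with 24.4% of 320 genes higher with si-snaR-A#3. The word of positions 3 to 9, GGUCGGA, turned over, with 19.5% of 205 genes higher with si-snaR-A#2 against 6.83% higher with si-snaR-A#3. Without genes that also held the word of positions 2 to 8, the shares were 24.8% higher with si-snaR-A#3 for positions 1 to 7 (258 genes) and 20.1% higher with si-snaR-A#2 for positions 3 to 9 (159 genes). Against scramble, genes with the first of these had a median of -0.09 in the si-snaR-A#2 libraries and 0.00 in those of si-snaR-A#3. Genes with the second had -0.03 and -0.13. Of 46 genes with the words of both positions 2 to 8 and positions 3 to 9, 17.4% were higher with si-snaR-A#2 against 4.35% with si-snaR-A#3. GRB2, whose stretch is printed above, holds both words. Of 109 genes with the word of positions 2 to 8 and neither neighbouring word, 4.59% were higher with si-snaR-A#2 against 29.4% with si-snaR-A#3. On the listed strand, genes with the word of positions 1 to 7 leaned toward si-snaR-A#2, at 15.9% against 10.8%, but without those that also held the word of positions 2 to 8 (1128 genes left) the shares were 12.1% and 12.3%. From position 4 on, the shares of both strands stayed near those of all genes. Neighbouring words share 6 bases and many genes, and none of these shares was tested.

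**Figure D2:**
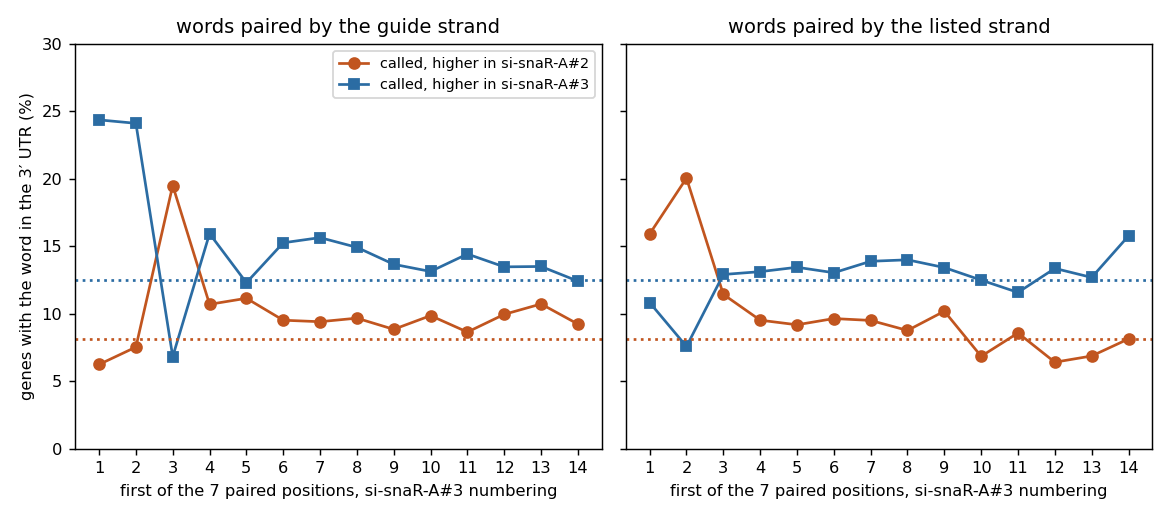
Share of genes called higher with si-snaR-A#2 (circles) or si-snaR-A#3 (squares) among genes whose 3′ UTR holds the word paired by 7 positions of the guide strand (left) or the listed strand (right), by the first of those positions; dotted lines give the shares of all 15005 genes with a 3′ UTR. The 2 lines cross between positions 2 and 3 and again between 3 and 4 of the guide, and between positions 2 and 3 of the listed strand.

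Genes of hypoxia and glycolysis formed the group with the largest share higher with si-snaR-A#2. Low oxygen stabilises the HIF transcription factors, which raise glucose uptake and glycolytic enzymes. Of 34 members tested, 22 (64.7%) were higher with si-snaR-A#2 against 1 (2.94%) with si-snaR-A#3. Over all genes tested these shares were 6.52% and 9.03%, and over protein-coding genes with at least 1 CPM 9.61% and 14.4%. The median log2 difference was 0.29, against -0.01 over all genes tested. PFKFB4, which makes the activator of phosphofructokinase, was at 40.2, 45.7 and 39.0 CPM with si-snaR-A#2 against 23.8, 24.3 and 23.4 CPM with si-snaR-A#3. The groups did not overlap, with a log2 difference of 0.80 ± 0.06 (SE; edgeR adjusted p = 2.8e-06). NDRG1, a HIF-responsive stress gene, was at 593, 624 and 574 CPM against 345, 380 and 385 CPM, a log2 difference of 0.69 ± 0.06 (SE). The glucose transporter SLC2A3 was at 151, 166 and 153 CPM against 95.7, 106 and 102 CPM, a log2 difference of 0.63 ± 0.07 (SE). ADM, the vasodilator adrenomedullin, differed by 0.69. Glycolytic enzymes among the 22 included GPI (0.45), PFKP (0.34), PGK1 (0.29) and GAPDH (0.27), whereas others, both hexokinases tested among them, were not called. The exception, VLDLR, a lipoprotein receptor, differed by -0.25, a call lost in 5 of the alternatives run.

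The distance from scramble varied within the group. The median member lay 0.16 above scramble in the si-snaR-A#2 libraries, whereas in the si-snaR-A#3 libraries it lay 0.11 below. After si-snaR-A#2, 11 members were called higher than scramble and 2 lower (13.7% and 12.1% over all genes). After si-snaR-A#3, 3 members were called higher and 14 lower (16.5% and 13.0% over all genes). PFKFB4 (0.14 and -0.67) and NDRG1 (0.12 and -0.57) stayed near scramble with si-snaR-A#2, whereas SLC2A3 (0.76 and 0.13) and ADM (0.70 and 0.01) stayed near it with si-snaR-A#3. Only 3 members held GUGGACC in the 3′ UTR, and among the 31 without it 21 were higher with si-snaR-A#2 against 0 with si-snaR-A#3 (edgeR, adjusted p under 0.05). The latter count was also 0 at an unadjusted p under 0.05, in DESeq2, in limma-voom and in edgeR's exact test. The core letters of the hypoxia response element, ACGTG on either strand, were in 13 of 31 member promoters (41.9%) and in 25.8% of 13270 promoters of tested genes, each 250 bases before to 50 after the RefSeq start. The variant GCGTG was in 13 of the 31 as well and in 48.9% of all.

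**Figure D3:**
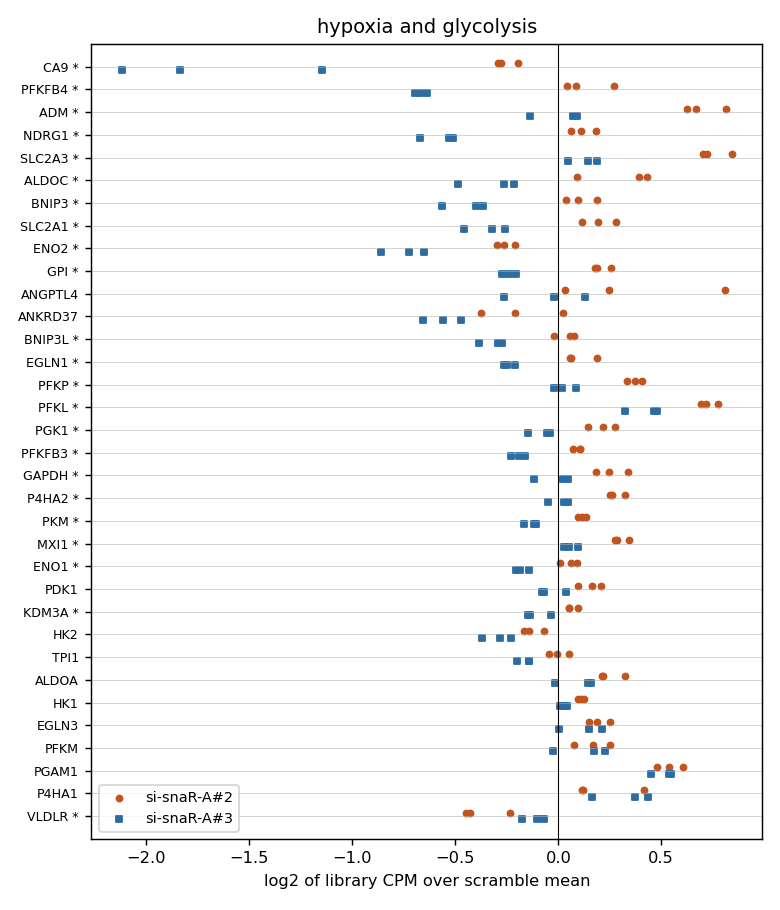
Log2 of each library's CPM over the scramble mean (x) for the 34 tested hypoxia and glycolysis genes (y), circles for si-snaR-A#2 and squares for si-snaR-A#3, with asterisks at called genes. In 22 of the 23 called genes the circles lie to the right of the squares.

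Genes of the integrated stress response ran the opposite way. In this response, phosphorylation of the initiation factor eIF2 favours translation of ATF4, which then induces amino acid transport and synthesis. Of 29 members tested, 16 (55.2%) were higher with si-snaR-A#3 against 2 (6.90%) with si-snaR-A#2, with a median log2 difference of -0.22. Over all genes tested the shares were 9.03% and 6.52%. ATF4 itself was at 537, 516 and 547 CPM with si-snaR-A#2 against 611, 603 and 648 CPM with si-snaR-A#3, a log2 difference of -0.22 ± 0.04 (SE; edgeR adjusted p = 0.0037). The groups did not overlap, and the scramble mean of 487 CPM lay below both. SLC7A11, the cystine importer, was at 16.6, 15.3 and 14.97 CPM against 32.8, 30.1 and 22.2 CPM, a log2 difference of -0.86 ± 0.12 (SE). Its partner SLC3A2 differed by -0.36, the leucine transporter SLC7A5 by -0.34, the serine synthesis enzyme PSAT1 by -0.39 and the pseudokinase TRIB3 by -0.44. At low levels, NUPR1 (-1.21) and CHAC1 (-0.99), which degrades glutathione, moved furthest. The members higher with si-snaR-A#2 were SLC7A1, a cationic amino acid transporter (0.37), and STC2, a secreted glycoprotein (0.28). Against scramble the median member was 0.08 higher in the si-snaR-A#2 libraries and 0.26 higher in those of si-snaR-A#3.

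Aminoacyl-tRNA synthetases, which charge tRNAs and several of which ATF4 regulates, showed the same direction. Of 20 tested, 9 (45.0%, against 9.03% over all genes) were higher with si-snaR-A#3 against 1 with si-snaR-A#2, with a median of -0.10. TARS1 was at 310, 295 and 322 CPM against 406, 396 and 414 CPM, a log2 difference of -0.39 ± 0.04 (SE). YARS1 (-0.27), GARS1 (-0.28) and IARS1 (-0.26) followed. The letters TGATGNAA on either strand, the core of the element that C/EBP-ATF dimers bind, were in 6 of 16 synthetase promoters (37.5%), 5 of 23 stress response promoters (21.7%) and 1.72% of all 13270. The 6 synthetases were AARS1, CARS1, IARS1, MARS1, NARS1 and TARS1, all called higher with si-snaR-A#3. The 5 stress response genes were ASNS, CHAC1 and SLC3A2, called higher with si-snaR-A#3, SLC7A1, called higher with si-snaR-A#2, and ATF3, which was not called. Stretches from 2 of these promoters and from 2 stress response promoters are shown with the letters in capitals (RefSeq, GRCh38.p14, read on the gene's strand), at chr5:33440957-33440984 (TARS1, plus), chr9:92293693-92293720 (IARS1, minus), chr15:40953252-40953279 (CHAC1, plus) and chr7:97872459-97872486 (ASNS, minus).
TARS1: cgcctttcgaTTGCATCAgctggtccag
IARS1: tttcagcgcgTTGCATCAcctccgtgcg
CHAC1: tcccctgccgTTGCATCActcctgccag
ASNS: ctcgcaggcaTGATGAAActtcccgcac

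**Figure D4:**
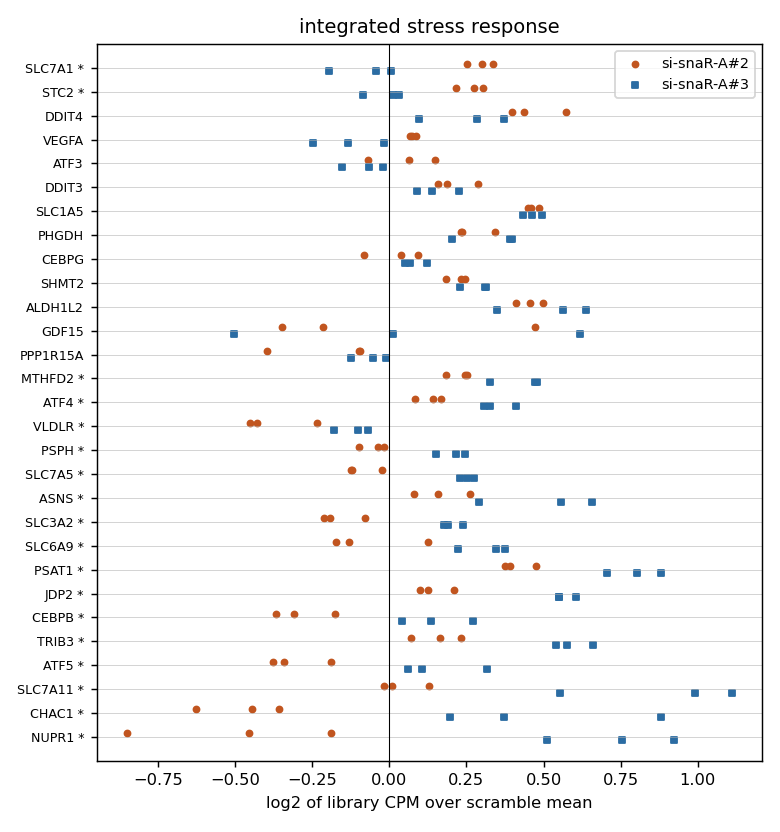
Log2 of each library's CPM over the scramble mean (x) for 29 integrated stress response genes (y), circles for si-snaR-A#2 and squares for si-snaR-A#3, with asterisks at called genes. Squares lie to the right of circles in 16 called genes, and to the left of them in 2.

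Called heat shock and cytosolic chaperone genes were mostly higher with si-snaR-A#3. Of 26 heat shock and cytosolic chaperone genes, 9 (34.6%) were higher with si-snaR-A#3 against 2 (7.69%) with si-snaR-A#2 (median -0.13). Over all genes these shares were 9.03% and 6.52%. HSP90AB1 was at 1753, 1777 and 1717 CPM against 2337, 2390 and 2440 CPM, a log2 difference of -0.45 ± 0.05 (SE), and the mitochondrial co-chaperonin HSPE1 differed by -0.40. DNAJB6 was at 165, 158 and 165 CPM against 91.1, 85.7 and 89.8 CPM, a log2 difference of 0.87 ± 0.04 (SE), and DNAJB1 differed by 0.36. Of 30 genes of the unfolded protein response and ER chaperones, 6 were higher with si-snaR-A#2 against 4 with si-snaR-A#3. ERO1A (0.26) and PDIA4 (0.23), which form disulphide bonds, stood on one side, and DNAJB11 (-0.33) and DNAJC3 (-0.28) on the other.

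Called tubulin and mitotic genes were mostly higher with si-snaR-A#3. Of 18 tubulins tested, 8 were higher with si-snaR-A#3 against 0 with si-snaR-A#2 (edgeR, adjusted p under 0.05), with a median of -0.25. None (0) was higher with si-snaR-A#2 at an unadjusted p under 0.05, in DESeq2, in limma-voom or in edgeR's exact test. TUBB2B was at 54.4, 53.3 and 52.97 CPM against 72.2, 77.8 and 79.7 CPM, a log2 difference of -0.52 ± 0.05 (SE), both far below a scramble mean of 124 CPM. TUBB6 (-0.31), TUBG1 (-0.32) and TUBB4B (-0.25) were also called. Without si-snaR-A#2 replicate 2 the count was 5. Tubulin genes are close paralogs, so counts may be split between them. Of 57 genes of G2/M and mitosis, 17 were higher with si-snaR-A#3 against 1 with si-snaR-A#2 (median -0.08). The 17 were 29.8% of the list, against 9.03% over all genes and 14.4% over protein-coding genes with at least 1 CPM. They became 7 to 10 when any 1 library was left out, lowest without si-snaR-A#2 replicate 2. The mitotic kinase PLK1 was at 86.9, 88.8 and 89.4 CPM against 133, 132 and 134 CPM, a log2 difference of -0.59 ± 0.04 (SE), on either side of a scramble mean of 114 CPM. PRC1, which bundles spindle microtubules, differed by -0.34, NCAPH by -0.31 and FOXM1 by -0.24, whereas INCENP was 0.37 higher with si-snaR-A#2. Of 52 genes of G1/S and DNA replication, 4 (7.69%) were higher with si-snaR-A#2 against 2 (3.85%) with si-snaR-A#3 (median 0.05). These shares were near or below the 6.52% and 9.03% over all genes.

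In other groups more members were higher with si-snaR-A#2, where the share was 6.52% over all genes and 9.61% over protein-coding genes with at least 1 CPM. Of 43 immediate early genes, 12 were higher with si-snaR-A#2 against 2 with si-snaR-A#3 (median 0.08). The 12 (27.9%) became 6 on omitting replicate 3 of si-snaR-A#2 and 7 on omitting replicate 1 or replicate 2 of si-snaR-A#3, and the median was 0.01 without si-snaR-A#2 replicate 1. JUN was at 633, 627 and 612 CPM against 464, 498 and 508 CPM, a log2 difference of 0.35 ± 0.04 (SE), both above a scramble mean of 350 CPM, and RHOB also differed by 0.35. NR4A1 (-0.28) and ETV5 (-0.64) were the exceptions, though the call of ETV5 was lost whenever 1 library was left out. That of NR4A1 was lost in 4 of the 6 fits that left out 1 library. Of 50 histone genes, 5 were higher with si-snaR-A#2 against 1 with si-snaR-A#3 (median 0.20), and 10.0% is near the share over all genes. Without si-snaR-A#2 replicate 1 the median was 0.05. H4C15 (0.89), H4C14 (0.94), H2BC21 (0.82) and H1-2 (0.56) were called. The libraries were enriched for poly(A)+ RNA, so histone transcripts without a poly(A) tail are largely not counted. H4C14 and H4C15 are near-identical copies, and both are uncertain. Of 56 lysosome and V-ATPase genes, 12 (21.4%) were higher with si-snaR-A#2 against 7 with si-snaR-A#3 (median 0.05), and the 7 became 2 to 4 without 1 library, except without si-snaR-A#3 replicate 1. ATP6AP2, an accessory subunit of the proton pump, was at 131, 136 and 134 CPM against 73.0, 77.3 and 78.3 CPM, a log2 difference of 0.81 ± 0.05 (SE), and the protease CTSL differed by 0.58. In autophagy, 9 of 36 genes were higher with si-snaR-A#2 against 4 with si-snaR-A#3 (median -0.01), led by GABARAPL1 (0.67) and ULK1 (0.52) on one side and ATG5 (-0.32) on the other.

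Genes of RNA surveillance differed in both directions. Of 24 factors of nonsense-mediated decay, 6 were higher with si-snaR-A#2 against 4 with si-snaR-A#3, with a median of 0.00. Together these were 41.7%, against 15.6% over all genes and 24.1% over protein-coding genes with at least 1 CPM. EIF4A3, the helicase of the exon junction complex, was at 141, 138 and 128 CPM against 76.8, 75.3 and 83.3 CPM, a log2 difference of 0.79 ± 0.06 (SE), with a scramble mean of 131 CPM. MAGOHB (0.49) and CASC3 (0.30), of the same complex, were also higher with si-snaR-A#2. The decapping enzyme DCP2 (-0.49) and release factor ETF1 (-0.33) had the opposite direction. Of 37 interferon response and RNA-sensing genes, 8 (21.6%) were higher with si-snaR-A#3 against 1 with si-snaR-A#2 (median -0.08). The share higher with si-snaR-A#3 was 9.03% over all genes and 14.4% over protein-coding genes with at least 1 CPM. IFITM1 was at 27.3, 27.2 and 28.4 CPM against 37.5, 35.8 and 37.6 CPM, a log2 difference of -0.42 ± 0.05 (SE). USP18 (-0.46), IFITM3 (-0.74) and IFITM2 (-0.44) shared this direction, and IRF3 differed by 0.23.

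Zinc finger (ZNF) genes split by chromosome, a division made after their values were seen. Of 436 tested, 65 were higher with si-snaR-A#2 against 27 with si-snaR-A#3, whereas among protein-coding genes 8.12% were higher with si-snaR-A#2 against 12.5% with si-snaR-A#3. The 223 on chromosome 19, where these repressors sit in clusters, gave 49 and 3, with a median of 0.15. The 22.0% of these higher with si-snaR-A#2 became 13.0% to 17.0% when 1 library was left out. The 213 on other chromosomes gave 16 and 24, with a median of -0.01. ZNF227, on chromosome 19, was at 22.8, 21.9 and 22.4 CPM against 17.2, 16.4 and 17.2 CPM, both above a scramble mean of 11.2 CPM. Other genes of chromosome 19 gave 76 and 95 of 1146. Members of this family share long stretches of sequence, so single members are uncertain. Of 4728 long noncoding RNAs, 140 (2.96%) were higher with si-snaR-A#2 against 41 (0.867%) with si-snaR-A#3, both below the shares over all genes, with a median of 0.10. At a mean of at least 1 CPM, 8.35% of 1162 were higher with si-snaR-A#2 against 1.98% with si-snaR-A#3, where protein-coding genes gave 9.61% and 14.4%.

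The groups that follow were called at or below the 15.6% of all genes, except for the small U2 snRNP list. Some lists that the text does not describe were called above it, such as SR and hnRNP proteins (35.6% of 59) and Polycomb and chromatin modifiers (32.0% of 50). Others lay below it, such as Argonautes and microRNA machinery (13.0% of 23). Of 83 cytosolic ribosomal protein genes, 2 were higher with each siRNA, RPL22L1 (0.42) and RPS26 (0.17) on the side of si-snaR-A#2, RPL26L1 (-0.38) and RPL7L1 (-0.35) on the side of si-snaR-A#3. Of 19 mitochondrial genome genes, 0 were called by edgeR (median 0.07), with 2 at an unadjusted p under 0.05, 1 called each by DESeq2 and by edgeR's exact test, and 0 by limma-voom. Of 27 snoRNA host genes only SNHG1 was called by edgeR, at 0.21. In the U2 snRNP, the spliceosome part that recognises the branch point, 2 of 12 (16.7%) were called, SF3B5 (0.41) and SF3B3 (0.16). Of the 13 genes the study followed up, 2 (15.4%) were called. SSB, the La protein that binds polymerase III transcripts, was at 348, 318 and 360 CPM against 416, 393 and 415 CPM (log2 difference -0.25 ± 0.05, SE; edgeR adjusted p = 0.0029). OGFR was 0.14 higher with si-snaR-A#2. The calls of OGFR and RPS26 were lost in 7 of the alternatives run, and those of SNHG1 and SF3B3 in 6. SF3B2, the splicing factor, was at 384, 382 and 385 CPM against 380, 379 and 396 CPM, overlapping groups that both lay above a scramble mean of 283 CPM. NME1 likewise overlapped, at 140, 134 and 137 CPM against 139, 139 and 144 CPM.

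**Figure D5:**
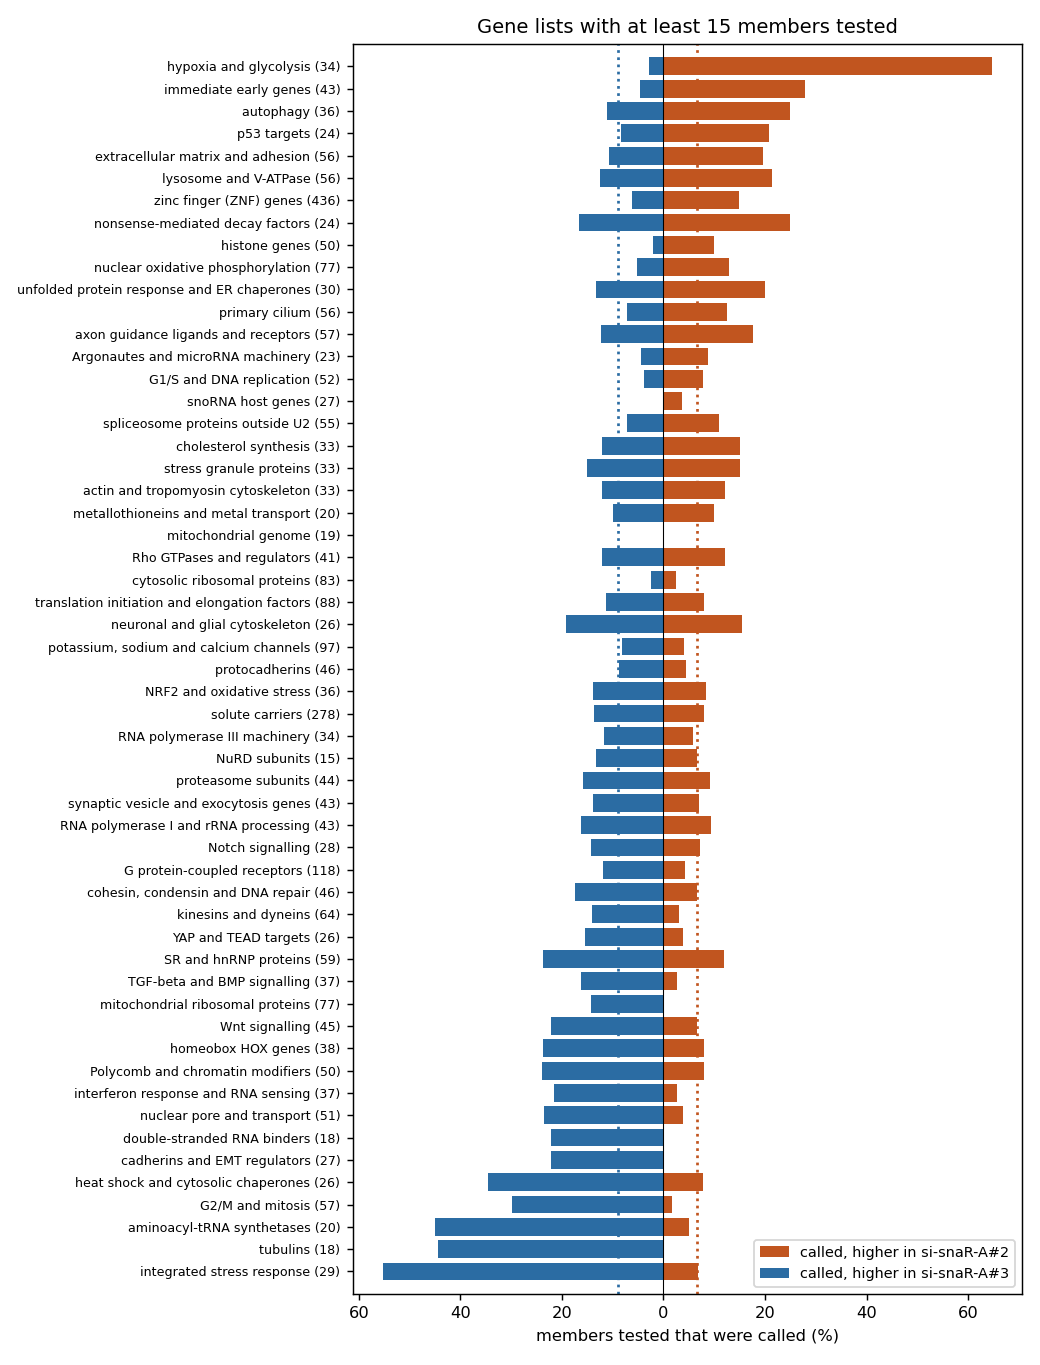
Share of tested members called higher with si-snaR-A#2 (right) or si-snaR-A#3 (left) in each gene list with at least 15 members tested, the number tested in brackets; dotted lines give the shares over all genes tested. Hypoxia and glycolysis lies at one end and the integrated stress response at the other.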

How the data were processed

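RNA of HEK293T cells was enriched for poly(A)+ RNA after removal of ribosomal RNA and sequenced as stranded libraries. The authors trimmed reads with Trim Galore, quantified them by quasi-mapping to the transcriptome with Salmon (hg38 per the labels) and deposited 1 table of estimated counts per gene for 12 libraries, not normalized between libraries. The deposited values are not whole numbers, and whether they had been rescaled for transcript length is not given in the sources used here.

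The deposited counts were rounded. Of 63541 gene IDs, 21999 passed edgeR's filterByExpr. They were scaled by TMM and fitted in 1 quasi-likelihood model of 4 groups of 3 libraries with edgeR 4.0.16 in R 4.3.3. The groups were si-snaR-A#1, si-snaR-A#2, si-snaR-A#3 and scramble, and si-snaR-A#2 was contrasted with si-snaR-A#3. P-values were two-sided and adjusted by Benjamini-Hochberg over all 21999 genes, and a gene was called under 0.05. CPM, computed from the deposited counts, are scaled to the TMM-adjusted library total, with no further adjustment for length, so they compare libraries and not genes. The script was tested on simulated data. Replicate libraries of the 2 siRNAs differed beyond counting noise in all 6 pairs (chi-square per degree of freedom 14.0 to 63.0). Both comparisons with scramble share the scramble libraries, so their calls and values are given side by side and are not independent.

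Transcript features came from GENCODE 44 (canonical transcripts) and promoters from RefSeq. The comparison and the 62 gene lists were chosen with earlier results of these data known, and lists are described by counts and medians, with no test. The text names the 12 largest called differences in each direction among genes of at least 1 CPM, with at least 10 counts in each of the 6 libraries and groups that do not overlap. It also names, in each list, members with the smallest p (up to 4 per direction), the genes the study followed up, and the largest differences in each 3′ UTR class, except for a few items that are not reported here. AARS1, ASNS, ATF3, ATF4, CARS1, GAPDH, GPI, MARS1, NARS1, PFKP, PGK1, PSAT1 and TRIB3 fall outside this rule and were named after their values were seen. Alternatives were other scalings, filters and tests (DESeq2 1.42.0, limma 3.58.1), the 6 libraries alone, a replicate block, removal of GC content and length trends, thinning, and leaving out each library.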

Additional observations from a re-analysis of the deposited data

How the results depend on the processing

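The direction of each called gene named in the text held in all alternatives run, and 1945 of 2012 gene values kept their side of the threshold. The other 67, from 15 genes, lost the call, 55 of them when 1 library was left out. The losses were most frequent for RPS26 and OGFR (7 settings each) and ETV5, PDE4C, SF3B3 and SNHG1 (6 each), and the calls of PPP4R4, FSIP2 and VLDLR were lost in 5 settings each. The 3421 called genes became 2980 to 4026 under the other scalings, filters, tests and trend removals, and 2215 to 2881 when 1 library was left out. The lowest value came without si-snaR-A#2 replicate 2, with 936 genes higher with si-snaR-A#2 against 1279 higher with si-snaR-A#3; without 1 library these counts ran from 936 to 1222 and from 1279 to 1659, with 1320 higher with si-snaR-A#3 without si-snaR-A#2 replicate 3. Fewer libraries were fitted in each of these. With all libraries, 1920 genes were higher with si-snaR-A#2 against 1991 with si-snaR-A#3 at a mean of at least 1 CPM. At 10 CPM the counts were 1677 and 1687. The 121 called genes over 2-fold became 24 at a mean of at least 1 CPM and 9 at 10 CPM, where low genes are no longer tested, and 53 with DESeq2, where the cause was not tested. They were 95 to 130 when 1 library was left out. The mitochondrial difference ranged from -0.0556 to 0.830 percentage points without 1 library.

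Same-numbered libraries of the 2 siRNAs did not deviate together (correlations -0.24 to 0.04, against -0.22 to 0.35 for other pairs), and not every library correlated best with its own number, so the numbers were not used as pairs. With the number as a replicate block 3096 genes were called (1312 higher with si-snaR-A#2 against 1784 with si-snaR-A#3), of which 120 were over 2-fold.

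Across alternatives, hypoxia and glycolysis gave 18 to 26 genes higher with si-snaR-A#2, the integrated stress response 11 to 16 higher with si-snaR-A#3, tubulins 5 to 8, aminoacyl-tRNA synthetases 6 to 10 and G2/M genes 7 to 18. The median of the interferon list was -0.16 to -0.04, except at a mean of at least 10 CPM, where 12 members were left and it was 0.02. Counts were rounded estimates, and differences under the spread of 3 libraries could not be detected.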
